A study of Rattus norvegicus with 15 samples.

Results

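The microRNA genes that lie between Dlk1 and Dio3 on rat chromosome 6 were followed across 5 stages of life in knee articular cartilage. The members were the genes of a list of 45 microRNA genes of this cluster that a probe set with a single gene symbol named on the array. That rule used gene names and no measured value, but the list was chosen with earlier results of these data known. It gave 42 genes, each with 1 probe set, of 18166 genes named in all and of 36685 probe sets measured. Mir341, Mir370 and Mir679 had no such probe set and were not analysed here. Per the labels, the cartilage came from the right knees of Sprague-Dawley rats, harvested individually, and total RNA was extracted with Trizol and labelled with biotin. The stages were T0 (newborn), T1 (youth), T2 (adult), T3 (early-stage elderly) and T4 (latter-stage elderly), each with 3 arrays that the labels call biological replicates. The sources used here give no age, sex or array batch, and no genotype or treatment differed between stages. The labels of T1 replicate 3 disagree: its source name says adult, the others youth, and it was kept at T1. Values are log2 signals, so a difference of 1 is a doubling of signal. A change is the later stage minus the earlier one, and a probe set was called when limma's adjusted p, over all probe sets, was under 0.05.

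The Dlk1-Dio3 region is imprinted in mammals. The protein genes Dlk1, Rtl1 and Dio3 are read from the paternally inherited chromosome, and the long non-coding RNAs Meg3, Rian and Mirg, with the small nucleolar RNAs and microRNAs cut from them, from the maternally inherited one. The microRNAs are known from embryo, placenta, brain and developing skeletal muscle, and in the mouse many of them lose expression after birth. A microRNA gene is transcribed as part of a long precursor, a hairpin is cut out of it, and the mature strand then pairs with messenger RNAs chiefly through its seed, bases 2 to 8 from its 5′ end. The arrays measured signal at the annotated microRNA genes in total RNA. Levels of the mature strands were not measured, and neither was the parental origin of the RNA.

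All 42 members lie on the plus strand, in a segment nearer Dlk1 and another nearer Dio3, with small nucleolar RNA genes in between. In the RefSeq table of build GRCr8, the mature sequences of the 11 members of the near segment (Mir770 to Mir136) span chr6:134298094-134331404. Those of the 31 members of the far segment (Mir379 to Mir410) span chr6:134543460-134579828. RefSeq held 78 mature sequences for the 42 members, with 74 different seeds. The mature sequences of the 4 members with the largest measured fall between newborn and adult are shown first, 5′ to 3′, with the seed in capitals.
miR-539-5p: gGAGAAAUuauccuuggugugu
miR-539-3p: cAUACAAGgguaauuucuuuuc
miR-493-5p: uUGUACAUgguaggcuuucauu
miR-493-3p: uGAAGGUCuacugugugccag
miR-380-5p: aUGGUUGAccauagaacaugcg
miR-380-3p: uAUGUAGUaugguccacaucu
miR-377-5p: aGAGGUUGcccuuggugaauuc
miR-377-3p: uGAAUCACacaaaggcaacuuuu

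A seed was shared by different members in 3 cases. GGUUGUC was shared by the 5′ strands of Mir494, Mir496 and Mir410, AUACAAG by the 3′ strands of Mir381 and Mir539, and UGGAUAU by the 5′ strands of Mir376c and Mir376b. They are shown because members that share a seed can be set beside each other in the values that follow, again with the seed in capitals.
miR-494-5p: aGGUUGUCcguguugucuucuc
miR-496-5p: aGGUUGUCcaugguguguuc
miR-410-5p: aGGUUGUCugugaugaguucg
miR-381-3p: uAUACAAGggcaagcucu
miR-376c-5p: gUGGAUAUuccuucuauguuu
miR-376b-5p: gUGGAUAUuccuucuaugguua
The remaining pair of sequences belongs to Mir134, which had the largest change in old age, and to Mir770, the only member with a higher mean in adult than in newborn arrays, a change that did not pass the test.
miR-134-5p: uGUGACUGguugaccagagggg
miR-770-5p: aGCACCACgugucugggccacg
Some seeds also occurred in microRNAs from other chromosomes. The seed of miR-377-5p is that of miR-672-5p, the seed of miR-329-3p that of miR-362-3p, the seed of miR-410-3p that of miR-344b-1-3p, and the seed of miR-376c-3p that of miR-741-5p.

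The median of an array was 4.94 to 5.28. For arrays, their number limits how precise a value is. The T4 arrays differed from the rest in their range of signals, as the standard deviation over probe sets was 2.00 to 2.05 at T0 to T2, 1.83 to 1.97 at T3 and 1.48 to 1.71 at T4. The median signal of 1182 olfactory receptor genes, a guide to background because these genes serve odour sensing, was 2.84 to 3.03 at T0 to T2, 3.00 to 3.41 at T3 and 3.57 to 4.39 at T4. Ribosomal protein genes had a median of 9.65 to 10.2 before T4, and at T4 one of 6.60 in replicate 1 and of 8.97 to 9.09 in the others. Markers of cartilage were measured at every stage: 10 of 12 listed genes averaged 10.07 to 10.22 in newborn arrays, 9.39 to 9.44 in youth, 8.06 to 8.57 in adult, 6.78 to 7.68 in early-stage and 5.99 to 6.85 in latter-stage elderly arrays. The mean of the list was lower at each later stage, but not every gene was. Of the 10 genes, 3 fell between T0 and T1, against 3.54% of all probe sets, and none rose. Matn1 changed by -2.57 and Col9a2 by -1.63, while Col2a1 changed by 0.14 and was not called. The part of the narrowed signal range at T4 in the lower mean there was not tested. In tissue RNA, fewer cells of a type and less RNA per cell cannot be told apart.

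Most members of the cluster were highest in newborn cartilage, and lower in youth and adult cartilage. Between T0 and T1, 34 of the 42 microRNA genes fell and none rose, in limma's fit, against 3.54% of all probe sets that fell and 4.01% that rose. The median change of the members was -2.17, against -0.03 over all probe sets, and single members ranged from -4.62 to 0.11. In 40 of 42 members every T1 array was below every T0 array, which held for 17.4% of all probe sets. The exceptions were Mir376a and Mir376c. Between T0 and T2, 35 members fell and none rose, with a median change of -2.06, against 6.19% of all probe sets that fell and 6.51% that rose. The comparisons of T1 and T2 with T0 share the T0 arrays. The median signal over members was 3.04 to 3.16 in T1 arrays, against 5.87 to 6.20 in T0 arrays. Among 310 microRNA genes elsewhere in the genome, 27 fell and 3 rose, with a median change of -0.11. By the F test over all stages, 39 members differed between stages, against 60.1% of all probe sets, and those that did not were Mir376a, Mir376b and Mir376c.

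**Figure D1:**
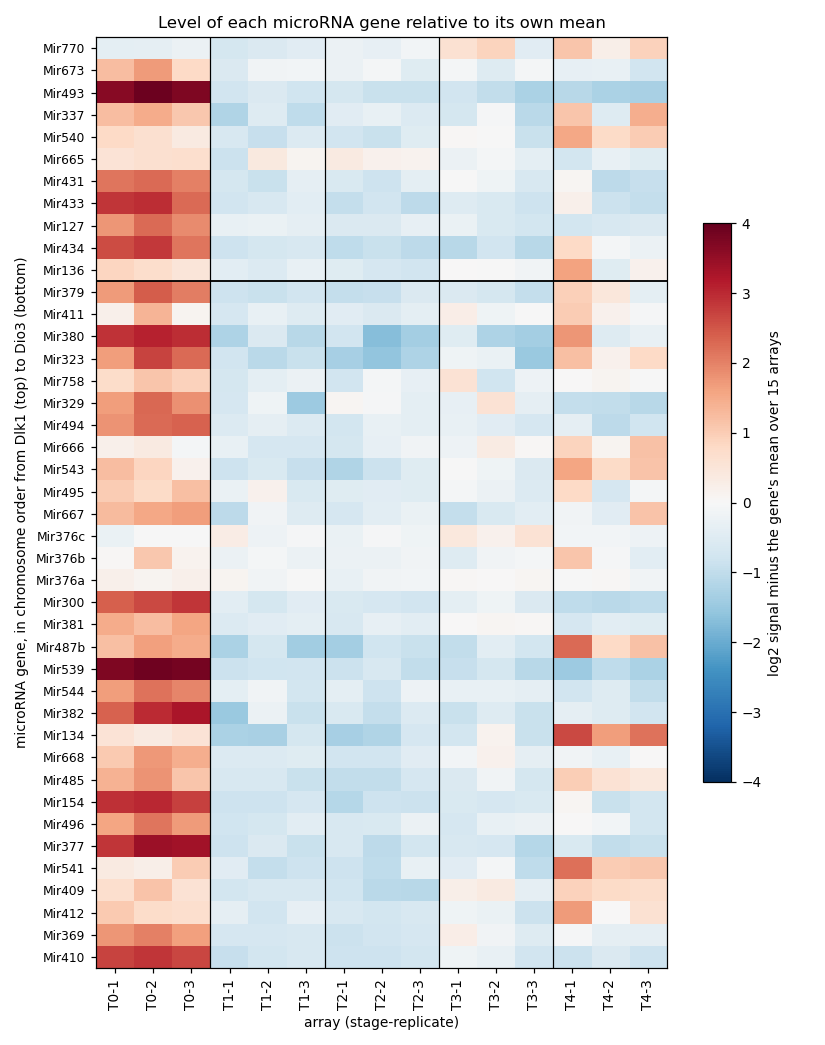
Each row is 1 of the 42 microRNA genes in chromosome order, each column 1 of the 15 arrays, and the colour is the log2 signal minus that gene's mean over all arrays. Most rows are red in the 3 T0 arrays and pale or blue at T1 to T3, and part of the rows turn red again at T4, most of all in T4 replicate 1; the mean over rows was 1.46 to 1.74 in T0 arrays and -0.20 to 0.39 in T4 arrays.

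Many of the later values of the members described next lie near or below the median of the olfactory receptor genes, 2.84 to 2.97 in T2 arrays. Falls to such levels have no exact size, and their order, which also follows how bright a probe set was at T0, is no ranking of the genes.

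In the segment nearer Dlk1, 8 of 11 members fell between T0 and T1 and 9 of 11 between T0 and T2. Mir493 had log2 signals of 7.40, 7.68 and 7.48 at T0, 3.00, 3.16 and 2.94 at T1, 3.06, 2.86 and 2.87 at T2, 2.99, 2.76 and 2.48 at T3 and 2.64, 2.48 and 2.47 at T4. Its T0 arrays lay far above all others, and the 4 later stages overlapped in part. It changed by -4.49 (SE 0.18) between T0 and T1 (adjusted p = 5.27e-09) and by -4.59 (SE 0.18) between T0 and T2 (adjusted p = 2.39e-09). Mir433 had 6.23, 6.33 and 5.65 at T0, 2.62, 2.74 and 2.95 at T1, 2.43, 2.61 and 2.32 at T2, 2.87, 2.77 and 2.55 at T3 and 3.58, 2.50 and 2.42 at T4. Every later array was below the T0 arrays, and T4 replicate 1 was the highest of the later ones. Its change was -3.30 (SE 0.28) at T1 and -3.61 (SE 0.28) at T2, both against T0 (adjusted p = 5.41e-06 and 9.26e-07).

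Mir433 is 1 of 5 members, with Mir431, Mir127, Mir434 and Mir136, whose genes lie inside the span of Rtl1 on the opposite strand. In the mouse their microRNAs match Rtl1 messenger RNA and guide its cleavage. All 5 had T1 arrays entirely below their T0 arrays. Mir431 averaged 4.25 ± 0.27 at T1, against 7.03 ± 0.12 at T0 (SD, n = 3 each), a change of -2.78 (SE 0.28). Mir127 averaged 4.52 ± 0.05 at T1, against 6.80 ± 0.25 at T0, a change of -2.29 (SE 0.19). Mir434 averaged 2.75 ± 0.09 at T1, against 6.00 ± 0.35 at T0, a change of -3.25 (SE 0.26). Each of these 3 fell, with adjusted p = 2.28e-05 for Mir431, 3.34e-06 for Mir127 and 2.9e-06 for Mir434. Mir136, with 2.17, 2.05 and 2.28 at T1, against 3.46, 3.29 and 3.08 at T0, did not pass the test between T0 and T1 (change -1.11, adjusted p = 0.0989) and did so between T0 and T2 (change -1.33, adjusted p = 0.0261). Rtl1 itself was not analysed here. The other fallen members of the segment were Mir337, Mir673 and Mir540, with changes of -2.18, -1.52 and -1.30 between T0 and T1.

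In the segment nearer Dio3, 26 of 31 members fell between T0 and T1, and 26 of 31 between T0 and T2. Mir539 had the largest measured change of the cluster, with log2 signals of 6.93, 7.08 and 7.04 at T0, 2.34, 2.41 and 2.43 at T1, 2.34, 2.56 and 2.21 at T2, 2.27, 2.49 and 2.10 at T3 and 1.74, 2.18 and 1.94 at T4. The T0 arrays stood apart from all later arrays, which overlapped between T1, T2 and T3. The change was -4.62 (SE 0.18) between T0 and T1 (adjusted p = 5.27e-09) and -4.64 (SE 0.18) between T0 and T2 (adjusted p = 2.39e-09). Mir380 had 6.44, 6.63 and 6.50 at T0, 2.34, 2.98 and 2.44 at T1, 2.80, 1.86 and 2.19 at T2, 3.08, 2.32 and 2.20 at T3 and 5.33, 3.05 and 3.25 at T4. It was high at T0, lower at T1 to T3, which overlapped, and T4 replicate 1 was above every other later array. It changed by -4.24 (SE 0.48) between T0 and T2 (adjusted p = 2.22e-05). Mir377 had 5.94, 6.52 and 6.46 at T0, 2.27, 2.51 and 2.19 at T1, 2.46, 2.05 and 2.37 at T2, 2.46, 2.43 and 1.96 at T3 and 2.47, 2.12 and 2.21 at T4. Its later stages overlapped throughout, and all were below T0, with a change of -4.01 (SE 0.22) between T0 and T2 (adjusted p = 3.4e-08).

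Mir154 had 6.07, 6.15 and 5.86 at T0, 2.30, 2.29 and 2.46 at T1, 1.99, 2.29 and 2.27 at T2, 2.51, 2.45 and 2.52 at T3 and 3.20, 2.24 and 2.40 at T4. All later arrays were far below T0, and T4 replicate 1 was the highest of them. Its change between T0 and T2 was -3.84 (SE 0.23, adjusted p = 7.03e-08). Mir323 had 5.59, 6.60 and 6.18 at T0, 3.13, 2.82 and 3.01 at T1, 2.59, 2.33 and 2.67 at T2, 3.74, 3.64 and 2.42 at T3 and 5.11, 4.08 and 4.71 at T4. The T0 arrays were highest and the T4 arrays next, and neither overlapped T1, T2 or T3. From T0 to T2 it changed by -3.59 (SE 0.36, adjusted p = 7.18e-06). Mir382 had 6.52, 7.14 and 7.41 at T0, 2.68, 3.92 and 3.26 at T1, 3.53, 3.20 and 3.61 at T2, 3.27, 3.63 and 3.27 at T3 and 3.80, 3.63 and 3.37 at T4. T1 to T4 overlapped and all later arrays were below T0, with a change of -3.58 (SE 0.30) between T0 and T2 (adjusted p = 1.68e-06).

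**Figure D2:**
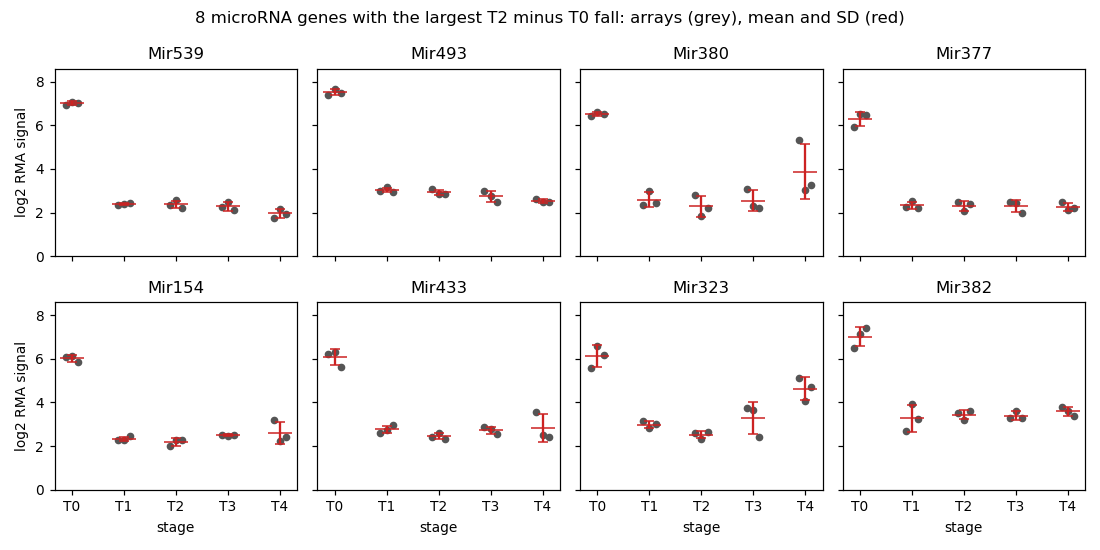
Log2 signal of the 8 microRNA genes with the largest T2 minus T0 fall, by stage: grey points are arrays, the red bar is the mean of 3 arrays and the red whiskers 1 SD. In each gene the T0 points lie above all later points, and Mir380 and Mir323 are higher at T4 than at T2.

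Of the 3 members with the seed GGUUGUC, the change between T0 and T1 was -3.50 for Mir410, -2.62 for Mir494 and -2.44 for Mir496, and all fell. Of the pair with AUACAAG, Mir539 changed by -4.62 and Mir381 by -1.89, and both fell. Neither Mir376b (-0.59) nor Mir376c (0.11), which share UGGAUAU, was called. The T0 signal of Mir376b was 2.93, 3.94 and 3.00, and that of Mir376c 1.33, 1.55 and 1.58. These are low values on an array whose olfactory receptor genes had a median of 2.89 to 3.03 at T0.

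The 7 members not called between T0 and T2 were Mir770, Mir665, Mir666, Mir411, Mir376a, Mir376b and Mir376c. Mir770, whose gene lies within the span of Meg3, had 6.17, 6.19 and 6.31 at T0, 5.86, 5.99 and 6.11 at T1, 6.32, 6.22 and 6.46 at T2, 7.18, 7.45 and 6.11 at T3 and 7.68, 6.80 and 7.48 at T4. Its T0, T1 and T2 arrays lay within a narrow range, and all T3 and T4 arrays except T3 replicate 3 were above that range. The change was 0.11 (SE 0.30) between T0 and T2 (adjusted p = 0.94). Mir665 had 6.14, 6.26 and 6.29 at T0, 4.75, 6.01 and 5.72 at T1, 5.95, 5.79 and 5.75 at T2, 5.38, 5.54 and 5.21 at T3 and 4.87, 5.31 and 5.11 at T4. Its T2 arrays were all below its T0 arrays, but the change of -0.40 (SE 0.27) did not pass the test (adjusted p = 0.488). Mir666 had 5.61, 5.78 and 5.35 at T0, 5.13, 4.75 and 4.74 at T1, 4.71, 5.10 and 5.29 at T2, 5.20, 5.74 and 5.46 at T3 and 6.30, 5.52 and 6.58 at T4. T2 lay below T0 without overlap, with a change of -0.54 (SE 0.27, adjusted p = 0.279), and T4 reached higher than T0. For Mir411 the change was -1.04 (SE 0.33, adjusted p = 0.0521), with 1.99, 1.86 and 2.07 at T2, against 2.67, 3.81 and 2.55 at T0. These misses do not show that the levels were equal.

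Taking the 95th percentile of olfactory receptor genes at the same stage as a guide to background, 29 of 42 members had a stage mean above it at T0, against 5 at T1, 5 at T2, and in old age 7 at T3 and 5 at T4. Probe sets differ in brightness, so this is a rough guide.

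Between youth and adult the cluster did not move detectably. From T1 to T2, 0 of 42 members were called by limma, against 0.403% of all probe sets that fell and 0.488% that rose. An unadjusted p under 0.05 was found in 0 members and in 8.52% of all probe sets. The members' changes ranged from -0.46 to 0.65 with a median of -0.03, and the smallest adjusted p was 0.644. As only 5 of 42 members had a T1 mean above the olfactory receptor 95th percentile, a further fall could hardly show in most. Of the 35 members that fell between T0 and T2, 31 did so in each of 25 settings of the analysis run without a filter on dim probe sets.

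**Figure D3:**
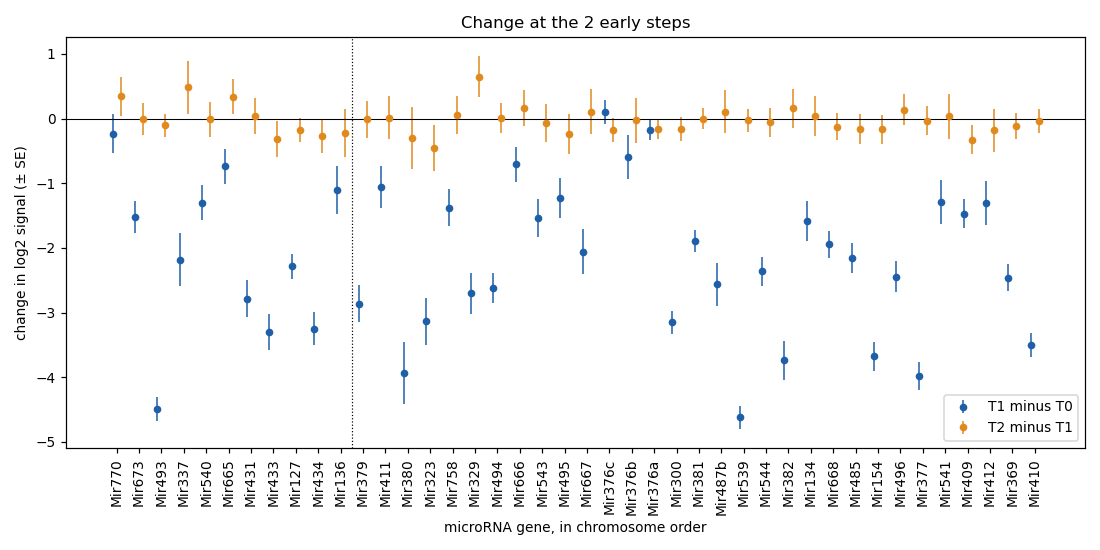
Change in log2 signal of the 42 microRNA genes in chromosome order, T1 minus T0 (blue) and T2 minus T1 (orange), with limma's standard error; the dotted line parts the segment near Dlk1 (left) from that near Dio3. The blue points lie between -4.62 and 0.11 and the orange points between -0.46 and 0.65.

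Skeletal muscle genes were also highest at T0, and they fell at both early steps. Of the 11 muscle genes measured, 11 fell between T0 and T1 with a median change of -2.21, against 3.54% of all probe sets. Between T1 and T2, 9 fell again, with a median change of -3.92, against 0.403% of all probe sets. No microRNA gene of the cluster was called at that second step. However, only 5 of 42 members had a T1 mean above the 95th percentile of olfactory receptor genes. Members near background could hardly show a second fall, so no difference from muscle genes can be read from this step for them. The muscle list averaged 10.77 to 11.31 in T0 arrays, 7.88 to 8.71 in T1 arrays and 4.90 to 5.22 in T2 arrays. Myh8, the perinatal myosin heavy chain, had a mean of 11.51 at T0, 3.79 at T1 and 3.65 at T2. Acta1, skeletal muscle actin, had means of 11.18 at T0, 9.51 at T1 and 5.29 at T2. As the mean deviation of a gene from its own mean over 15 arrays, the cluster stood at 1.46 to 1.74 at T0, -0.67 to -0.53 at T1 and -0.68 to -0.55 at T2, and muscle genes at 3.51 to 4.06, 0.63 to 1.46 and -2.35 to -2.03. Markers of blood and marrow cells were higher at T1 than at T0. Erythroid genes (5 of 8 measured) averaged 9.92 to 10.11 in T1 arrays, against 4.89 to 5.96 in T0 arrays, and neutrophil and myeloid genes (8 of 8) 8.61 to 8.95 in T1 arrays, against 4.90 to 5.91 in T0 arrays. The part of muscle, blood or marrow cells in the fall of the cluster was not tested.

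**Figure D4:**
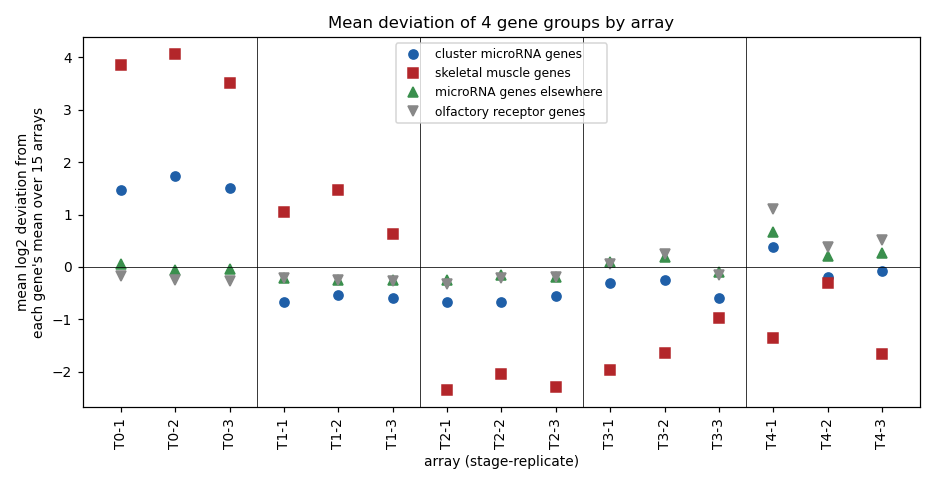
Mean log2 deviation from each gene's own mean over 15 arrays, by array, for the 42 cluster microRNA genes (circles), 11 skeletal muscle genes (squares), 310 microRNA genes elsewhere (upward triangles) and 1182 olfactory receptor genes (downward triangles). The circles drop between T0 and T1 and are level at T2, the squares drop at both steps, and circles and both kinds of triangle are higher in T4 arrays than in T2 arrays. Most cluster genes were near background at T1, so a second drop of the circles could hardly be seen.

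From adult to early old age no member was called. In limma's fit 0 of 42 passed between T2 and T3, against 0.112% of all probe sets that fell and 0.0382% that rose. An unadjusted p under 0.05 was found in 5 members and in 19.8% of all probe sets. The smallest adjusted p was 0.0568, for Mir409, with 5.64, 5.77 and 5.05 at T3, against 4.62, 4.31 and 4.28 at T2, groups that did not overlap. The median change over members was 0.25, against 0.09 over all probe sets. The count changed with single arrays and with weighting: 4 members rose without T3 replicate 3, 1 rose without T4 replicate 1, and 10 rose with array weights. Shares of all probe sets called in these settings are not given here, so the shifts in count are no result about the members.

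In late old age part of the cluster rose. Between T2 and T4, 19 members rose and 2 fell, against 27.2% of all probe sets that rose and 29.4% that fell, with a median change of 0.46 for the members and 0.07 over all probe sets. Genes outside the cluster moved over the same stages. Of the olfactory receptor genes 652 of 1182 (55.2%) rose and 14 fell, with a median change of 0.85, and of the microRNA genes elsewhere 131 of 310 (42.3%) rose and 31 fell, with a median change of 0.45, beside 45.2% of the members. The part of the narrowed signal range at T4 in the members' rise was not tested. The split of calls depended on the scaling, with 15 members that rose and 8 that fell after quantile normalization, 15 and 5 after centring each array on its median, and 19 and 7 with array weights. Centring moved the median of all probe sets from T2 to T4 to -0.12. Without T4 replicate 1, the array with the low ribosomal protein signal, 13 rose and 1 fell. Shares of all probe sets called under these alternatives are not given here either.

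Mir134, whose microRNA acts on dendritic spines in rat neurons through Limk1, had the largest change, with 6.38, 6.20 and 6.39 at T0, 4.56, 4.53 and 5.12 at T1, 4.51, 4.64 and 5.17 at T2, 5.10, 5.97 and 4.93 at T3 and 8.46, 7.49 and 8.0 at T4. All T4 arrays were above every array of the other stages, T0 included. Its T4 mean of 7.98 was above the 95th percentile of olfactory receptor genes at T4, 6.08. It rose by 3.21 (SE 0.31) from T2 to T4 (adjusted p = 1.32e-05) after a change of -1.55 (SE 0.31) from T0 to T2 (adjusted p = 0.00282). Mir487b had 5.84, 6.28 and 6.10 at T0, 3.37, 3.92 and 3.24 at T1, 3.26, 3.84 and 3.74 at T2, 3.64, 4.21 and 3.90 at T3 and 6.90, 5.43 and 5.79 at T4. Its T4 arrays spanned the range of its T0 arrays and lay above T1 to T3, a rise of 2.42 (SE 0.33) over T2 (adjusted p = 8.26e-05). Its T4 mean of 6.04 was below that T4 percentile, while its T0 mean of 6.07 was above the percentile at T0, 4.82. Mir541 had 4.51, 4.38 and 5.16 at T0, 3.69, 3.19 and 3.30 at T1, 3.31, 3.13 and 3.86 at T2, 3.68, 4.06 and 3.12 at T3 and 6.35, 5.17 and 5.22 at T4. The lowest T4 array was just above the highest T0 array, and the rise over T2 was 2.15 (SE 0.35, adjusted p = 0.00023). Its means at T0 and T4, 4.69 and 5.58, were each below the percentile of that stage. Its earlier fall was near the threshold, with a change of -1.25 (SE 0.35, adjusted p = 0.0259), and it was lost when T0 replicate 1 or 3 or T2 replicate 1 or 2 was left out and after quantile normalization (adjusted p of 0.0513 to 0.128).

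Of the 8 members with the largest early falls, Mir380 and Mir323 were among those that rose between T2 and T4, with changes of 1.59 and 2.10. The others, Mir539, Mir493, Mir377, Mir154, Mir433 and Mir382, ranged from -0.41 to 0.43 and were not called. The members that fell between T2 and T4 were Mir329 (-0.89) and Mir665 (-0.73). Mir770 rose by 0.99 (SE 0.30, adjusted p = 0.0129), and its T4 arrays were all above its T2 arrays. Over the last step, from T3 to T4, 13 members rose and 4 fell, against 16.5% of all probe sets that rose and 25.8% that fell; in a fit of the T3 and T4 arrays alone 4 rose and none fell. With array weights 13 rose and 12 fell over this step, and the shares of all probe sets in these 2 alternative fits are not given here. The median change of the members was 0.19 as reported, -0.01 with array weights and -0.03 without T4 replicate 1. The stage of the highest mean was T0 for 34 members (19.5% of all probe sets), T3 for 1 (17.9%) and T4 for 7 (38.1%). The 7 were Mir770, Mir540, Mir666, Mir543, Mir134, Mir541 and Mir409, and the 1 was Mir376c.

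The interval also held 2 plus-strand microRNA genes that were not on the list, and both fell between T0 and T1, with changes of -2.97 for Mir1193 and -0.91 for Mir299. Another 9 microRNA genes are annotated on the minus strand across hairpins of plus-strand genes. Of these, 4 fell between T0 and T1, against 3.54% of all probe sets. Mir3576 overlaps all 76 bases of the Mir539 hairpin. The hairpins are shown, each 5′ to 3′ on its own strand with annotated mature strands in capitals, because their signals were set side by side. Mir539 is at chr6:134563598-134563673 on the plus strand and Mir3576 at chr6:134563578-134563692 on the minus strand of GRCr8.
Mir539: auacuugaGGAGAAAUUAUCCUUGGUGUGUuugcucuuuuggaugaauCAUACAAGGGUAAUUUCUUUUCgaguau
Mir3576: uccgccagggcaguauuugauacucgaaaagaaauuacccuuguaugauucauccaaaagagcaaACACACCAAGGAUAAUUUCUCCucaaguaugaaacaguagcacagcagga
Mir3576 averaged 2.26 at T1, against 3.89 at T0, a change of -1.63 (SE 0.26), beside -4.62 for Mir539. Mir3543 changed by -2.52 beside -3.25 for Mir434, Mir3579 by -1.28 beside -3.94 for Mir380, and Mir3592 by -1.32 beside -3.74 for Mir382. In other pairs the minus-strand gene was not called. Mir3544 changed by -0.64 beside -2.18 for Mir337, Mir3581 by -0.69 beside -1.47 for Mir409, and Mir299b by -0.33 beside -0.91 for Mir299. The T0 means of these minus-strand genes, 4.62, 4.06 and 3.90, were above the olfactory receptor median at T0 and below the 95th percentile, 4.82. These misses do not show equal levels. Mir3578 changed by -0.10 where Mir369 fell by 2.46 on the log2 scale. The T0 signals of Mir3578, 2.69, 2.68 and 2.68, were below the olfactory receptor median of 2.89 to 3.03 at T0. A fall from such a level could hardly be seen, so this pair shows no difference between strands. Whether the probes separate the strands was not tested.

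**Figure D5:**
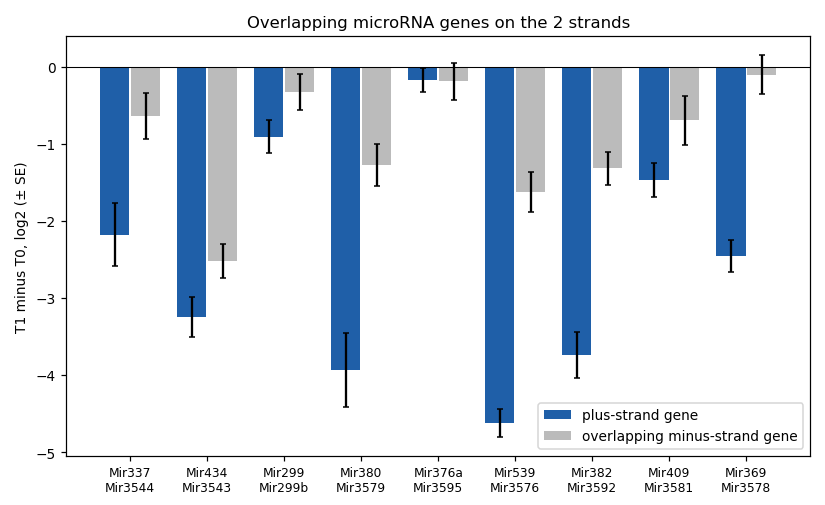
T1 minus T0 change in log2 signal of 9 plus-strand microRNA genes (blue) and of the minus-strand microRNA genes that overlap them (grey), with limma's standard error. Blue bars reach -4.62 (Mir539) and grey bars -2.52 (Mir3543). Mir376a changed by -0.18 and Mir3595 by -0.19, and Mir3578 changed by -0.10 beside -2.46 for Mir369. The T0 means of Mir376a, Mir3595 and Mir3578, 2.19, 2.04 and 2.69, were below the olfactory receptor median at T0, so a fall could hardly be seen there. Mir3544, Mir3581 and Mir299b, with T0 means above that median, changed by -0.64, -0.69 and -0.33 and were not called.

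The protein gene at the Dlk1 end of the interval fell over the same step. Dlk1, which encodes a membrane protein of the Notch-ligand type that restrains differentiation, had 11.06, 10.98 and 10.77 at T0, 6.79, 7.35 and 7.42 at T1, 6.68, 5.75 and 6.65 at T2, 6.66, 6.17 and 6.12 at T3 and 6.76, 6.19 and 6.16 at T4. Its T0 arrays were far above the rest and T1 lay above T2 without overlap. It changed by -3.75 (SE 0.28) from T0 to T1 (adjusted p = 1.74e-06) and by -4.57 (SE 0.28) from T0 to T2. Dio3, the deiodinase that inactivates thyroid hormone, had 5.15, 5.38 and 5.09 at T0, 4.86, 5.04 and 4.91 at T1, 5.09, 4.89 and 5.27 at T2, 5.12, 4.99 and 4.66 at T3 and 6.61, 5.64 and 5.42 at T4. Its T0 and T2 arrays overlapped, and its T4 arrays were the highest. The change from T0 to T2 was -0.12 (SE 0.27, adjusted p = 0.919). Of 9 measured neighbours, Dlk1 and Begain fell between T0 and T2, and none rose, against 6.19% and 6.51% of all probe sets. Begain, the gene on the far side of Dlk1, changed by -1.09 (SE 0.27, adjusted p = 0.0124). Wars1, Slc25a47, Slc25a29, Yy1, Ppp2r5c and Dync1h1 changed by -0.21 to 0.62 and were not called.

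Meg3 was the only host transcript of the list with a probe set, and Rian, Mirg, Meg8, Meg9 and Dio3os were not analysed here. It had 5.47, 5.46 and 5.21 at T0, 5.05, 5.13 and 4.86 at T1, 4.63, 4.12 and 4.53 at T2, 5.10, 4.64 and 4.26 at T3 and 5.72, 5.15 and 5.05 at T4. The T1 arrays were all below the T0 arrays, the T2 arrays lower still, and the T4 arrays overlapped those of T0. Meg3 changed by -0.36 (SE 0.25) from T0 to T1 (adjusted p = 0.597), by -0.95 (SE 0.25) from T0 to T2 (adjusted p = 0.0172) and by 0.88 (SE 0.25) from T2 to T4 (adjusted p = 0.00799). The median change of olfactory receptor genes from T2 to T4 was 0.85. The T4 mean of Meg3, 5.31, was below their 95th percentile at T4, 6.08. The window around its start is shown because Meg3 opens the maternally read transcripts of the cluster. It covers chr6:134273806-134274105 on the plus strand of GRCr8, 250 bases before to 50 after the gene's start, from RefSeq, with a cAMP response element (TGACGTCA, its own reverse complement) in capitals.
Meg3 promoter window: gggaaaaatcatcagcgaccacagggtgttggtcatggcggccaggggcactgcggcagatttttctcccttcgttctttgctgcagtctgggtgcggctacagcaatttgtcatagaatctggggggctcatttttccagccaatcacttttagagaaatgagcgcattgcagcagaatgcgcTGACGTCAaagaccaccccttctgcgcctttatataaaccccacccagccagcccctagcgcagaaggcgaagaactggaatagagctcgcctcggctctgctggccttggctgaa
That motif begins 66 bases before the start and occurs in 525 of 27457 promoter windows of this length (1.91%). TATAAA was found 2 times, on opposite strands with an overlap (14.3% of windows hold it on either strand), and CCAAT 1 time (37.7%). A match describes the letters and not binding.

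Genes that act on the cluster or on its microRNAs were followed from lists. Of all probe sets, 6.19% fell and 6.51% rose between T0 and T2, so single calls in such short lists are no result about a list. Of 8 measured imprinting genes, 1 fell and 1 rose between T0 and T2. Zfp57, a zinc finger protein that keeps methylation at imprinted regions, changed by -0.92 (SE 0.20, adjusted p = 0.0047), and Ezh2, the histone methyltransferase of a Polycomb complex, by 1.62 (SE 0.44, adjusted p = 0.024). Trim28, Dnmt1, Dnmt3a, Dnmt3l, Zfp445 and Aff3 were not called and ranged from -0.85 to 1.00. Of 11 microRNA processing genes, Prkra, a partner of Dicer, fell (-0.63) and the Argonaute gene Ago4 rose (1.46). The nuclease genes Drosha and Dicer1 changed by -0.16 and -0.19 and were not called. From T2 to T4, 9 of the 11 processing genes fell, against 29.4% of all probe sets. Ribosomal protein genes were also lower at T4, with array medians of 6.60 to 9.09, against 9.72 to 9.76 at T2. The part of the narrowed signal range at T4 in this count was not tested. Of 5 measured regulators, Mef2c changed by -1.50 (SE 0.35, adjusted p = 0.00945), and the others were not called. MEF2 factors act in muscle and in hypertrophic cartilage, and drive transcription of the far segment in rat neurons.

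A list of 7 reported targets had 6 measured genes, of which 2 rose and 2 fell between T0 and T2. Among all probe sets 6.51% rose and 6.19% fell. Bcl6, a transcriptional repressor reported as a target of miR-127 in human cells, changed by 1.91 (SE 0.27), with 7.51, 7.07 and 7.36 at T2, against 5.91, 5.42 and 4.88 at T0. Creb1, a transcription factor reported as a target of miR-134 in the mouse brain, changed by 1.32 (SE 0.24), with 8.15, 8.20 and 8.11 at T2, against 6.49, 6.81 and 7.21 at T0. For both, the T2 arrays were all above the T0 arrays. The transcription factor Foxp2 (-2.10) and Ppp1r9a, an actin-binding protein (-3.0), fell. Limk1 and Pum2, the neuronal targets of miR-134, changed by -0.04 and 0.29 and were not called. Protein levels and the pairing of microRNAs with these messengers were not measured. Markers of cell types also changed over these stages. B cell genes (3 of 5 measured) averaged 8.01 to 8.72 in T2 arrays, against 5.11 to 5.39 in T0 arrays. The part of changed cell types in the changes of the listed targets was not tested.

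Likeness between members was described by correlation. Over the 861 pairs of members, the median Pearson correlation was 0.69 across all 15 arrays, 0.94 across the 9 arrays of T0 to T2 and 0.23 across the 6 arrays of T3 and T4. The points share their arrays, and in most members the T0 arrays lie apart from the later ones. Among genes that are not members, those with a level most like the cluster's mean deviation over 15 arrays were Chrnd (r = 0.99), Chrna1 (0.99), Arhgap36 (0.99), Atp1b4 (0.98), Prr32 (0.98) and Mir3543 (0.98). Chrnd and Chrna1 encode subunits of the muscle acetylcholine receptor. The stage means of Chrnd, in order from T0 to T4, were 6.67, 3.73, 3.95, 4.09 and 4.81. Over the 9 arrays of T0 to T2 the most alike were Scn3b, a sodium channel subunit (0.999), the perinatal myosin Myh8 of the muscle list (0.999), Fndc3c1 (0.998), Arhgap36 (0.996), Chrnd (0.995) and Bex1 (0.995). Dlk1 ranked at place 120 over 15 arrays (r = 0.91) and Meg3 at place 1019 (r = 0.66). The likeness says how levels ran across these arrays and nothing of shared control.

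The base composition of the hairpins was compared with the change in old age. RefSeq gave a hairpin for 37 of the 42 members, with 28.6% to 72.4% G and C. The median was 46.3% for the 17 members that rose between T2 and T4 and have a hairpin, and 43.6% for the 20 that did not rise. Across genes, the Pearson correlation of G and C content with the change between T2 and T4 was 0.25 over members and 0.21 over 282 microRNA genes elsewhere, and with the change between T0 and T2 it was 0.18 and 0.01. Genes are not independent replicates, and these values are a description.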

How the data were processed

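Total RNA of knee articular cartilage (15 samples) was hybridised to Affymetrix RaGene 2.0 ST arrays, 3 for each of 5 stages. The authors deposited log2 signals for 36685 probe sets, and the submitters' processing notes name RMA. That method subtracts background, gives all arrays the same spread of probe signals and condenses the probes of a set, which takes out part of any change that most transcripts share. The sources used here name no software version, library file or genome build. Every deposited sample column was used, and samples were grouped by the stage in their labels.

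By the platform annotation 18511 probe sets carried 1 gene symbol, 575 several and 17599 none. Where a gene had several, the one with the highest mean over all arrays stood for it. Stage means were estimated in limma 3.58.1 (R 4.3.3, functions lmFit and eBayes at their defaults) from all 15 arrays, so the stages pool their spread. P-values were adjusted by Benjamini and Hochberg's method across the whole table in each of 6 pairwise comparisons and in the F test. The fit was tested on simulated data for T1 minus T0 over 36685 probe sets with 200 changed: 76% were recovered at a log2 change of 2 and 92% at 3, with 7 false calls. The simulated noise was independent and normal, with the same spread at all stages for a given probe set. Measured spreads could differ by stage, as for Mir380 with SD 0.10 at T0 and 1.26 at T4, and the simulation does not cover that case. Sequences and hairpins are RefSeq's (GRCr8). Positions, strands and hairpins were joined through the gene identifier of the annotation, and all 42 members had a position.

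Members given in full were the 8 with the largest fall and up to 4 with the largest rise in T2 minus T0, the 3 with the largest change in T4 minus T2, and the 3 with the smallest change in T2 minus T0 among those whose T0 mean lay above the 95th percentile of the 67 genes named Olr and digits (5.41). Other genes named were those of the neighbour, host transcript and imprinting lists, called genes of the processing, regulator and target lists, and the 6 genes most alike in level. Members shown for their position, seed or strand were chosen after their values were seen, as were the wider set of olfactory receptor genes, the overlapping genes, Drosha, Dicer1, Limk1 and Pum2, and Myh8 and Acta1 of the muscle list. The members and lists were chosen with earlier results of these data known. Alternatives were quantile normalization, median centring, a filter on dim probe sets (stage mean of at least 4), a trended robust variance, array weights, fits of fewer arrays, T1 replicate 3 placed with T2, the mean over a gene's probe sets, the replicate number as a block, and each array left out in turn.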

Additional observations from a re-analysis of the deposited data

How the results depend on the processing

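Under these alternatives no called change of a member given in full reversed. The members' median change kept its sign in each comparison except T4 minus T3, where it was 0.19 as reported, -0.01 with array weights and -0.03 without T4 replicate 1. The fall of the cluster between T0 and T1 was called in 31 to 39 members, and between T0 and T2 in 32 to 37; between T1 and T2 no alternative called a member. Leaving out 1 array at a time gave 31 to 36 members for T1 minus T0, 33 to 36 for T2 minus T0, 0 throughout for T2 minus T1, 0 to 4 for T3 minus T2, 13 to 20 for T4 minus T3, 14 to 24 for T4 minus T2 and 37 to 39 for the F test. Array weights called 10 members in T3 minus T2, and fitting only the arrays compared called 4 in T4 minus T3, where the fit has fewer samples. The estimation of the array weights stopped before it converged, and the cause of the larger count was not tested. Mir134 in T2 minus T0 missed the threshold after quantile normalization (-1.43, adjusted p = 0.0535). With T1 replicate 3 placed with T2, 31 members were called in T1 minus T0 and 36 in T2 minus T0. Without the T3 and T4 arrays the comparisons that use them cannot be made, and the F test has no version with only the arrays compared. Same-numbered samples of different stages did not deviate together (median correlation -0.01, from -0.19 to 0.12, over 30 pairs), so the numbers were not taken to pair the samples. With the replicate block the counts were 34, 0, 35, 0, 17 and 19 for T1 minus T0, T2 minus T1, T2 minus T0, T3 minus T2, T4 minus T3 and T4 minus T2, and 39 for the F test. The shares of all probe sets called under the alternatives are not given here, so these counts describe only how the members' calls depend on the setting. With 3 arrays per stage, dim members such as Mir376a and Mir376c limit what can be seen.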
